A study of Mus musculus with 12 samples.

Results

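Cytokine messenger RNAs are short-lived because proteins that bind their 3′ untranslated regions hand them to the decay machinery. The data describe 9 genes of that control, chosen by name from the 53819 genes counted in monocytes from the bone marrow of C57Bl6J wild-type mice: the ZFP36 family (Zfp36, Zfp36l1, Zfp36l2), the Regnase family (Zc3h12a, Zc3h12c, Zc3h12d), the AU-rich element binding proteins Hnrnpd and Khsrp, and the stabilising protein Elavl1. All 9 were found and all 9 passed the filter on low counts. The 4 groups of 3 libraries were monocytes exposed to lipopolysaccharide (LPS, a component of Gram-negative bacterial walls that binds Toll-like receptor 4) after a night with platelets and a wash, monocytes kept with platelets and washed, monocytes given LPS only, and untreated monocytes. Doses, the time with LPS and the source of the platelets were not given in the sources used here. Nothing there ties the libraries to separate mice or cultures either: the p-values therefore cover the spread among these 12 libraries, and that spread may be technical.

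As background, ZFP36 proteins are zinc finger proteins that bind AU-rich elements and recruit the CCR4-NOT deadenylase, which removes the poly(A) tail. Regnases are endonucleases, and Regnase-1 (the product of Zc3h12a) cuts stem-loops in cytokine mRNAs during translation. In macrophages given LPS, tristetraprolin (the product of Zfp36) and Regnase-1 are known as brakes on Tnf and Il6, and both are themselves controlled by kinases that LPS switches on. Hnrnpd encodes AUF1 and Khsrp encodes KSRP, which favour decay, while Elavl1 encodes HuR, which competes for AU-rich sites and favours stability.

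Total counts were 20060867 to 32155727 per library. Levels are in CPM, the counts scaled to a common library total by the trimmed mean of M-values, and levels compared between genes are further divided by the exon length in kilobases. Platelet replicate 1 stood apart: 0.886% of its counts were mitochondrial, against 0.431 to 0.600% in the other libraries, and its chi-square per degree of freedom against the other platelet libraries was 69.1 and 75.8, where other pairs within a group gave 6.29 to 19.8. Its description reads Control while its title and treatment name platelets, so it stayed with the platelet libraries and values without it are given where they matter. None of 10 markers of classical monocytes was at 0 in any group. Summed T and NK cell markers lay at 0.0340 to 1.499 CPM over all libraries, and Cd3e and Ncr1 were at 0 in all 12.

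The ZFP36 genes carry in their own 3′ untranslated regions the nonamer that their proteins bind. The nonamer was searched on the transcript strand, overlaps counted, in the longest annotated 3′ untranslated region of each gene in GENCODE M21 (GRCm38). It occurred once each in Zfp36, Zfp36l1 and Zfp36l2, 8 times in Elavl1 and 5 times in Tnf, the textbook target of tristetraprolin. Each line below gives a site with flanks from that annotation's transcripts, 5′ to 3′ and on the minus strand of the genome, with the nonamer in capitals; for Elavl1 and Tnf the first copy is shown.
Zfp36, chr7:28376951-28376979: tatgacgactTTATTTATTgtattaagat
Zfp36l1, chr12:80108167-80108195: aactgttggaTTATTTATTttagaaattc
Zfp36l2, chr17:84184914-84184942: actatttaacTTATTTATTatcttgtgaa
Elavl1, chr8:4285788-4285816: gtcatgaaaaTTATTTATTtatttattta
Tnf, chr17:35199689-35199717: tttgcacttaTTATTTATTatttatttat

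The comparison set held the longest annotated 3′ untranslated region of protein-coding genes, with very short regions and a chromosome left out. Of these 19411 regions, 8.09% held TTATTTATT. Among regions within 10% of the gene's own length the share was 4.19% for Zfp36, 10.6% for Zfp36l1, 10.7% for Zfp36l2, 19.5% for Elavl1 and 4.34% for Tnf. Zc3h12a, Zc3h12c, Zc3h12d, Hnrnpd and Khsrp had 0 copies in the region searched. Such a match describes the letters, not occupied sites.

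In untreated monocytes the ZFP36 family led the 9 genes per exon length. Zfp36l2 averaged 51.5 ± 1.59 CPM per kilobase and Zfp36 39.2 ± 2.62 (SD, n = 3 each, here and below), followed by Hnrnpd at 19.5 ± 0.778, Khsrp at 19.3 ± 0.718 and Elavl1 at 17.6 ± 0.476. Zfp36l1 stood at 8.07 ± 0.503, Zc3h12d at 3.93 ± 0.0688, Zc3h12a at 2.27 ± 0.500 and Zc3h12c at 1.59 ± 0.151 CPM per kilobase. Hnrnpd and Khsrp overlapped between libraries and did not differ beyond their spread. The place of Elavl1 depends on the length used, since its annotated exons together span 10363 bases but its longest transcript 5743 bases, which gives 31.8 CPM per kilobase. With longest transcripts, Zfp36 stood at 48.8 CPM per kilobase, close to Zfp36l2 at 51.5.

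The first question is what LPS did to these factors in monocytes that had met no platelets. LPS turned the ZFP36 family over: Zfp36 rose about 4-fold while Zfp36l1 and Zfp36l2 fell about 9- and 10-fold. Within the Regnase family it raised Zc3h12a and Zc3h12c more than 10-fold and lowered Zc3h12d. By edgeR's quasi-likelihood test with Benjamini-Hochberg adjustment over the 13151 genes tested and a threshold of 0.05, 4 of the 9 were higher and 3 lower, where 50.7% of all genes tested were called (27.7% higher and 23.0% lower).

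Zfp36, whose product tristetraprolin is induced by LPS as part of its own feedback on Tnf, had 553, 571 and 546 CPM in the LPS libraries, against 126, 142 and 140.3 CPM in the untreated libraries. Every LPS library was far above every untreated one. The log2 fold change was 2.03 (SE 0.09, adjusted p = 1.31e-11, edgeR), or 4.09-fold. In bulk RNA, fewer cells of a type and less RNA per cell cannot be told apart, here and in each result that follows.

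Zfp36l2, best known from lymphocyte development and haematopoietic progenitors, had 19.0, 18.9 and 16.6 CPM in the LPS libraries, against 175, 184 and 186 CPM in the untreated libraries. It had the highest mean of the 9 per exon length in untreated cells, though close to Zfp36 when longest transcripts were used. Its fall was the largest of the 9 here, 9.98-fold lower (log2 −3.32, SE 0.12, adjusted p = 9.36e-13, edgeR). Zfp36l1, which shares target sites with Zfp36l2 in B and T cells, had 3.005, 2.52 and 2.67 CPM in the LPS libraries, against 24.4, 22.5 and 25.4 CPM in the untreated libraries. It was 8.79-fold lower (log2 −3.14, SE 0.17, adjusted p = 2.51e-10, edgeR), and the libraries of the groups did not overlap for either gene, as held for 60.5% of all genes tested. A gene on the opposite strand, Gm26669, covers 55.9% of the annotated exons of Zfp36l1, and the strand setting of the counting is not given, so reads of the pair cannot be told apart.

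Zc3h12a, which encodes Regnase-1, had 90.1, 90.6 and 89.9 CPM in the LPS libraries, against 5.33, 8.14 and 6.16 CPM in the untreated libraries. The LPS libraries lay within a narrow band, and the rise was 13.8-fold (log2 3.79, SE 0.14, adjusted p = 2.46e-12, edgeR). Zc3h12c, which encodes Regnase-3, had 184, 204 and 229 CPM in the LPS libraries, against 11.9, 9.85 and 10.8 CPM in the untreated libraries. Its rise was 18.9-fold (log2 4.24, SE 0.14, adjusted p = 4.52e-13, edgeR), the largest of the 9 in this comparison. Zc3h12d, which encodes Regnase-4, had 4.05, 3.66 and 3.87 CPM in the LPS libraries, against 15.96, 15.9 and 16.4 CPM in the untreated libraries. It ran against its relatives, 4.17-fold lower with LPS (log2 −2.06, SE 0.17, adjusted p = 4.95e-08, edgeR).

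The other binding proteins moved little. Hnrnpd was 1.18-fold higher (log2 0.24, SE 0.07, adjusted p = 0.0127, edgeR), a call that was lost with upper-quartile scaling and turned to −0.14 when library size alone was used. The call was also lost with no filter (adjusted p = 0.141) and without untreated replicate 1 (adjusted p = 0.0613, edgeR). Elavl1 had a log2 fold change of 0.25 (95% interval 0.03 to 0.48, adjusted p = 0.0603, edgeR), which turned to −0.13 with library size alone. It was called higher without platelet replicate 1 (0.23, adjusted p = 0.00776) or 3 (0.25, adjusted p = 0.0285, edgeR). With only the 2 groups fitted it was called higher too (0.24, adjusted p = 0.0106, edgeR). Khsrp had a log2 fold change of −0.19 (95% interval −0.44 to 0.06, adjusted p = 0.197, edgeR). Khsrp was called lower with upper-quartile factors (−0.39, adjusted p = 0.00795), with library size alone (−0.57, adjusted p = 0.00145), with only the 2 groups fitted (−0.21, adjusted p = 0.0278) and without platelet replicate 1 (adjusted p = 0.0464). Changes of this size depended on the scaling: the median log2 fold change of all genes was 0.01 here, −0.19 with upper-quartile factors and −0.37 with library size alone, and the share of called genes that were higher was 54.6%, 37.9% and 26.3%. The 6 large changes above kept their direction and call under each of these scalings.

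**Figure D1:**
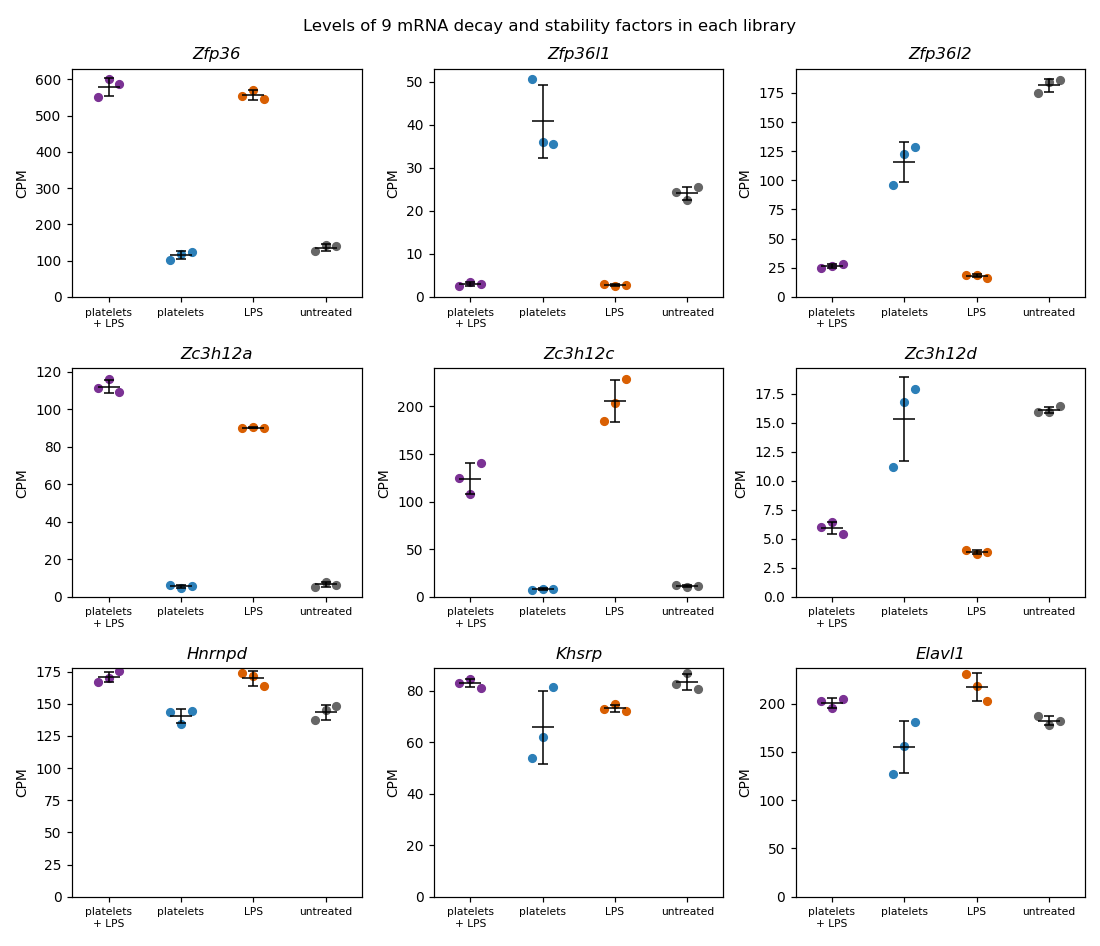
Level of each of the 9 genes (CPM, linear axes from 0) in the 3 libraries of platelet plus LPS, platelet, LPS and untreated monocytes. Points are libraries and bars the mean ± SD; Zfp36, Zc3h12a and Zc3h12c stand high in both LPS groups, and Zfp36l1, Zfp36l2 and Zc3h12d stand high in both groups without LPS.

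The same comparison can be made among monocytes that had been kept with platelets, setting platelet plus LPS against platelets alone. The 6 ZFP36 and Regnase genes moved in the directions seen without platelets, and Hnrnpd, Khsrp and Elavl1 were higher by 1.21-, 1.26- and 1.30-fold. In all, 6 of the 9 were higher and 3 lower, where 49.4% of genes tested were called (27.6% higher and 21.8% lower). The groups do not share libraries with the LPS against untreated comparison.

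Zfp36 had 551, 600.1 and 587 CPM in the platelet plus LPS libraries, against 102, 119 and 123 CPM in the platelet libraries, 5.05-fold higher (log2 2.34, SE 0.09, adjusted p = 2.81e-12, edgeR). Zfp36l1 had 2.51, 3.51 and 3.01 CPM in the platelet plus LPS libraries, against 50.7, 36.1 and 35.6 CPM in the platelet libraries. Its 13.6-fold fall (log2 −3.76, SE 0.17, adjusted p = 2.43e-11, edgeR) was the largest of the 9 in this comparison, and platelet replicate 1 held its highest level. Zfp36l2 had 24.7, 26.5 and 27.8 CPM in the platelet plus LPS libraries, against 96.2, 122 and 128 CPM in the platelet libraries. It was 4.39-fold lower (log2 −2.13, SE 0.11, adjusted p = 1.25e-10, edgeR), and here platelet replicate 1 held the lowest of the platelet levels.

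Zc3h12a had 111, 116 and 109 CPM in the platelet plus LPS libraries, against 6.19, 4.47 and 5.89 CPM in the platelet libraries. This was the largest rise of the 9 in this comparison, 20.3-fold (log2 4.34, SE 0.15, adjusted p = 6.32e-13, edgeR). Zc3h12c had 125, 107 and 141 CPM in the platelet plus LPS libraries, against 6.62, 8.38 and 8.63 CPM in the platelet libraries, 15.7-fold higher (log2 3.98, adjusted p = 1.08e-12, edgeR). Zc3h12d had 6.04, 6.42 and 5.40 CPM in the platelet plus LPS libraries, against 11.2, 16.8 and 17.9 CPM in the platelet libraries. It was 2.57-fold lower (log2 −1.36, adjusted p = 3.78e-06, edgeR), and as for Zfp36l2 the first platelet library was the lowest of its group.

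The calls on the other 3 genes depended on the scaling. Khsrp had a log2 fold change of 0.33 (SE 0.12, adjusted p = 0.0275, edgeR), but 0.15 without platelet replicate 1 (adjusted p = 0.208), and −0.03 with library size alone. Its call was lost in 10 of 21 alternatives, among them DESeq2 (adjusted p = 0.0604), leaving out any 1 platelet plus LPS library (0.0531 to 0.0719) and leaving out platelet replicate 2 (0.0935). It had 83.2, 84.5 and 81.3 CPM in the platelet plus LPS libraries, against 53.9, 62.2 and 81.6 CPM in the uneven platelet libraries, and the groups overlapped. Elavl1 stood at 0.38 (adjusted p = 0.00798, edgeR) and at 0.20 without that library (adjusted p = 0.0393), with 0.01 when library size alone was used. Hnrnpd, at 0.28 (adjusted p = 0.00547, edgeR), turned to −0.08 with library size alone and was called without platelet replicate 1 too (0.24, adjusted p = 0.00702). With no filter its call was lost (adjusted p = 0.0525, edgeR). With either upper-quartile factors or library size alone, 3 of the 9 genes were higher instead of 6, and over all genes the share of calls that were higher was 35.4% and 27.6% instead of 55.8%.

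**Figure D2:**
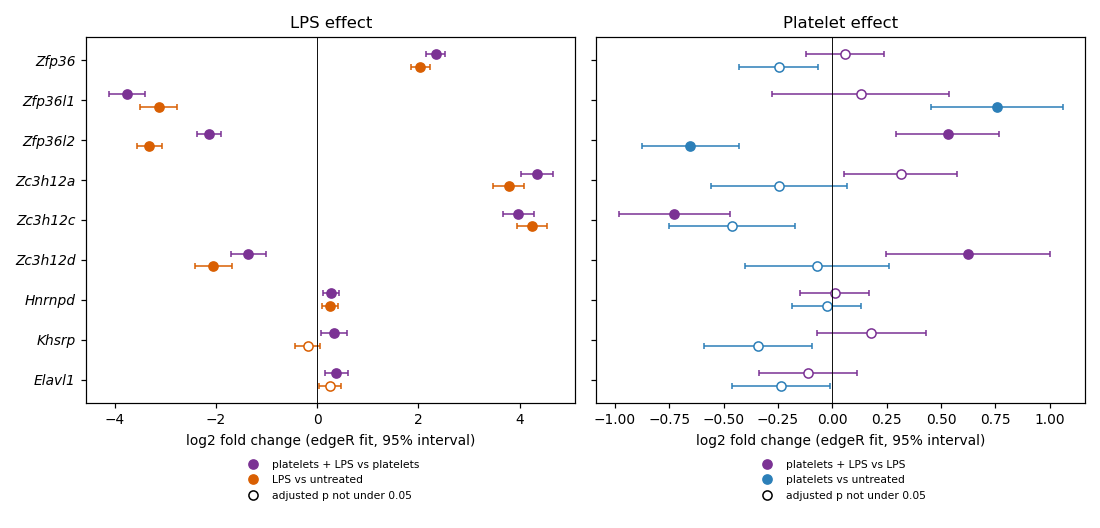
Log2 fold changes of the 9 genes with 95% intervals from the edgeR fit, for the LPS effect with and without platelets (left) and for the platelet effect with and without LPS (right, on a narrower axis). Filled points have an adjusted p under 0.05; the LPS effects reach from −3.76 to 4.34 and the platelet effects from −0.73 to 0.76.

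The make-up of the families shows what these changes amount to. Shares were taken within each library from counts divided by exon length. Zfp36 made up 96.4 ± 0.214% of the ZFP36 family in LPS monocytes and 39.7 ± 1.13% in untreated monocytes. Zfp36l2 held 3.09 ± 0.190% in LPS monocytes, against 52.1 ± 0.581% in untreated monocytes, where it was the largest member. The family as a whole summed to 166 ± 3.996 CPM per kilobase with LPS and 98.8 ± 4.11 without, so most of the family's mRNA after LPS came from 1 gene.

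Zc3h12a made up 50.3 ± 2.63% of the Regnase family in LPS monocytes and 29.0 ± 5.10% in untreated monocytes, with Zc3h12c at 48.2 ± 2.74% in LPS monocytes and 20.4 ± 2.80% in untreated monocytes. Zc3h12d held 1.52 ± 0.135% in LPS monocytes and 50.6 ± 2.47% in untreated monocytes. The family sum was 62.3 ± 3.18 CPM per kilobase in LPS monocytes and 7.79 ± 0.336 in untreated monocytes. For the shares of Zfp36 and Zc3h12a alike, the exact two-sided permutation test of LPS against untreated gave p = 0.1, the smallest that 3 libraries against 3 can give.

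Platelets before LPS left the ZFP36 shares near those of LPS alone, with Zfp36 at 95.2 ± 0.148% in platelet plus LPS monocytes and 96.4 ± 0.214% in LPS monocytes. That small difference, −1.18 percentage points, also had the smallest possible exact permutation p of 0.1. Zfp36l2 held 4.25 ± 0.150% in platelet plus LPS monocytes and 3.09 ± 0.190% in LPS monocytes. The Regnase make-up differed more: Zc3h12a made up 66.5 ± 3.32% in platelet plus LPS monocytes and 50.3 ± 2.63% in LPS monocytes, a difference of 16.2 percentage points (exact permutation p = 0.1, the smallest possible). Zc3h12c held 31.0 ± 3.57% in platelet plus LPS monocytes and 48.2 ± 2.74% in LPS monocytes. The family sums were close, at 58.5 ± 1.07 CPM per kilobase in platelet plus LPS monocytes and 62.3 ± 3.18 in LPS monocytes. Without LPS, Zfp36 made up 41.6 ± 1.32% in platelet monocytes and 39.7 ± 1.13% in untreated monocytes (exact permutation p = 0.2). Zfp36l1 held 17.4 ± 4.88% in platelet monocytes and 8.18 ± 0.635% in untreated monocytes, and Zfp36l2 41.1 ± 3.56% in platelet monocytes and 52.1 ± 0.581% in untreated monocytes.

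**Figure D3:**
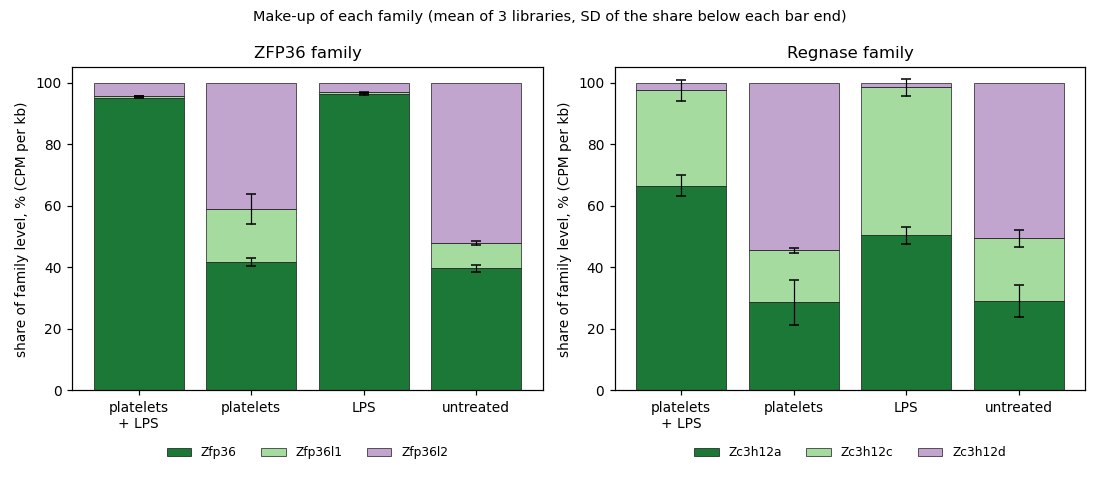
Share of each gene in the summed, length-scaled level (CPM per kilobase) of the ZFP36 family (left) and the Regnase family (right), as stacked means of 3 libraries; each error bar is the SD of the share whose upper edge it crosses. Zfp36 fills 95.2% of its family in platelet plus LPS monocytes and 96.4% in LPS monocytes, and Zc3h12d 54.5% of its family in platelet monocytes and 50.6% in untreated monocytes.

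The next question is what overnight contact with platelets did by itself. Platelets raised Zfp36l1 and lowered Zfp36l2, a divergence of closely related genes, and no other member passed the test. That is 1 of 9 higher and 1 of 9 lower, where 6.49% of all genes tested were called (3.63% higher and 2.86% lower). DESeq2 called 1 higher and 2 lower, and limma-voom 1 and 1.

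Zfp36l1 had 50.7, 36.1 and 35.6 CPM in the platelet libraries, against 24.4, 22.5 and 25.4 CPM in the untreated libraries. Each platelet library lay above each untreated one. It was 1.69-fold higher (log2 0.76, SE 0.14, adjusted p = 0.00427, edgeR). Zfp36l2 had 96.2, 122 and 128 CPM in the platelet libraries, against 175, 184 and 186 CPM in the untreated libraries. It was 1.57-fold lower (log2 −0.65, SE 0.10, adjusted p = 0.00112, edgeR), again without overlap, as held for 25.1% of all genes tested. Platelet replicate 1 was the most extreme library for both genes, and without it the log2 fold changes were 0.59 (adjusted p = 0.00499) and −0.51 (adjusted p = 0.000413, edgeR).

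For the others the intervals leave changes of modest size possible. Zfp36 was at log2 −0.25 (95% interval −0.43 to −0.06, adjusted p = 0.106) and Zc3h12c at −0.46 (95% interval −0.75 to −0.17, adjusted p = 0.0587, edgeR). Zc3h12a was at −0.25 (95% interval −0.56 to 0.07, adjusted p = 0.382, edgeR). Zc3h12d, Hnrnpd, Khsrp and Elavl1 lay between −0.34 and −0.03, with adjusted p of 0.102 to 0.886. Without platelet replicate 3, the library of this group with the highest Khsrp and Elavl1, 4 of the 9 were called lower instead of 1, namely Zfp36l2, Zc3h12c (adjusted p = 0.0496), Khsrp (0.00283) and Elavl1 (0.0399).

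Cell type markers moved in the same comparison. The sum of 12 platelet markers was 3401 to 6109 CPM in platelet libraries, highest in replicate 1, and 3789 to 4497 CPM in untreated libraries, nearly all of it Pf4. Of the 9 platelet markers tested, 4 were higher and 1 lower with platelets. Ppbp lay lower, at 156 to 191 CPM in platelet libraries and 238 to 245 CPM in untreated libraries. Gng11 had 73.6 to 148 CPM in platelet libraries and 1.65 to 2.07 CPM in untreated libraries, Clec1b 14.03 to 24.8 CPM in platelet libraries and 0 to 0.136 CPM in untreated libraries, and Gp9 8.26 to 12.7 CPM in platelet libraries and 0 to 0.0351 CPM in untreated libraries. The sum of 6 red cell markers was 11.9 to 24.5 CPM in platelet libraries and 1.12 to 1.61 CPM in untreated libraries, and that of 6 basophil and mast cell markers 7.50 to 8.63 CPM in platelet libraries and 1.09 to 2.45 CPM in untreated libraries. The sum of 7 dendritic cell markers was 6.03 to 8.37 CPM in platelet libraries and 1.80 to 2.81 CPM in untreated libraries. That of 9 neutrophil markers was lower, at 195 to 219 CPM in platelet libraries and 359 to 384 CPM in untreated libraries, mostly Mmp8. The part of these cells in the results was not tested.

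The last pairwise question is whether platelets before LPS changed the levels reached with LPS. Zfp36, the dominant family member, stood at 551, 600.1 and 587 CPM in platelet plus LPS libraries, against 553, 571 and 546 CPM in LPS libraries, a log2 fold change of 0.06 (95% interval −0.12 to 0.24, adjusted p = 0.777, edgeR). Zfp36l2 and Zc3h12d were higher and Zc3h12c was lower. These are 2 of 9 higher and 1 of 9 lower, where 7.28% of all genes tested were called (4.41% higher and 2.87% lower).

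Zc3h12c had 125, 107 and 141 CPM in the platelet plus LPS libraries, against 184, 204 and 229 CPM in the LPS libraries. It was 1.66-fold lower (log2 −0.73, SE 0.12, adjusted p = 0.00140, edgeR), and the call held under each alternative tried. Zc3h12a, its relative, had 111, 116 and 109 CPM in the platelet plus LPS libraries, against 90.1, 90.6 and 89.9 CPM in the LPS libraries. The libraries of the groups did not overlap for either gene, as held for 27.0% of all genes tested, but Zc3h12a was not called, at log2 0.31 (95% interval 0.05 to 0.57, adjusted p = 0.160, edgeR). It was called by limma-voom (adjusted p = 0.0487) and when only those 2 groups were fitted (adjusted p = 0.00884).

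Zfp36l2 had 24.7, 26.5 and 27.8 CPM in the platelet plus LPS libraries, against 19.0, 18.9 and 16.6 CPM in the LPS libraries. It was 1.44-fold higher (log2 0.53, SE 0.11, adjusted p = 0.00791, edgeR), called under each alternative tried, and in both groups far under the 175 to 186 CPM of untreated libraries. Zc3h12d had 6.04, 6.42 and 5.40 CPM in the platelet plus LPS libraries, against 4.05, 3.66 and 3.87 CPM in the LPS libraries. Its call is borderline, at log2 0.62 (SE 0.18, adjusted p = 0.0448, edgeR): over the alternatives the adjusted p ran from 0.00541 to 0.168, and 15 of 21 lost the call. Zfp36l1, at 69 to 82 counts in platelet plus LPS libraries and 49 to 83 counts in LPS libraries, had a log2 fold change of 0.13 with an interval of −0.28 to 0.54.

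Markers of other cells also differed between the groups with LPS. Of the 9 platelet markers tested, 6 were higher and 1 lower in platelet plus LPS than in LPS monocytes, with Gng11 at 58.2 to 71.6 CPM in platelet plus LPS libraries and 1.53 to 2.43 CPM in LPS libraries. Ppbp lay lower, at 133 to 152 CPM in platelet plus LPS libraries and 242 to 276 CPM in LPS libraries. The sum of all 12 platelet markers was 3634 to 3912 CPM in platelet plus LPS libraries and 3904 to 4717 CPM in LPS libraries. All 4 red cell markers tested were higher, and the sum of 6 was 7.08 to 9.35 CPM in platelet plus LPS libraries and 0.0362 to 0.650 CPM in LPS libraries. The basophil and mast cell sum was 4.70 to 11.0 CPM in platelet plus LPS libraries and 1.25 to 1.41 CPM in LPS libraries. The sum of 9 neutrophil markers was 157 to 179.9 CPM in platelet plus LPS libraries and 229.5 to 289.5 CPM in LPS libraries, mostly Mmp8. The dendritic cell sum was 87.9 to 100.5 CPM in platelet plus LPS libraries and 76.7 to 92.1 CPM in LPS libraries, mostly Ccr7, Fscn1 and Xcr1. That of 6 B cell markers was 16.5 to 23.5 CPM in platelet plus LPS libraries and 34.9 to 37.5 CPM in LPS libraries, mostly Ighm. Here too the part of these cells in the results was not tested.

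The platelet effect with LPS was then set against the platelet effect without LPS in 1 interaction term. Zfp36l2 was the 1 member called: platelets raised it with LPS (log2 0.53) and lowered it without LPS (log2 −0.65), a difference of 1.18 (SE 0.15, adjusted p = 6.26e-04, edgeR). Of all genes tested, 1.58% were called in this term, 0.859% with a higher and 0.722% with a lower platelet effect under LPS. The value was 1.03 without platelet replicate 1 (adjusted p = 4.49e-05), and 1.03 to 1.26 over leaving out each library in turn. The same contrast, read the other way, says that LPS lowered Zfp36l2 by 4.39-fold after platelets and by 9.98-fold without them.

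No member had a called negative interaction, with 1 at an unadjusted p under 0.05 (Zfp36l1) and 0 by DESeq2 and by limma-voom. Zfp36l1 stood at −0.63 (adjusted p = 0.326), Zc3h12d at 0.69 (adjusted p = 0.237), Zc3h12a at 0.56 (adjusted p = 0.243) and Khsrp at 0.52 (adjusted p = 0.187, edgeR). Khsrp was called without platelet replicate 3 (0.71, adjusted p = 0.00852). For Zc3h12c the difference was −0.27 (95% interval −0.65 to 0.12, adjusted p = 0.694, edgeR), so its lower level after platelets was not shown to differ between cells with and without LPS.

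**Figure D4:**
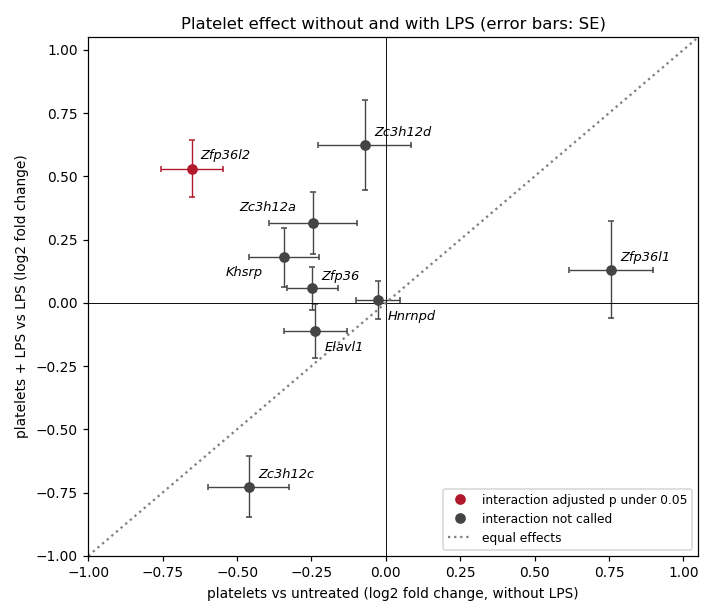
Platelet effect on each of the 9 genes without LPS (platelet against untreated, horizontal) and with LPS (platelet plus LPS against LPS, vertical), as log2 fold changes with SE; the dotted line marks equal effects. Zfp36l2, in red at 0.53 with LPS and −0.65 without, is the gene whose interaction was called, and Zc3h12c lies below 0 on both axes.

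The machinery that these factors recruit was called about as often as genes at large. Of 19 genes of deadenylation and its adaptors, 10 were higher and 1 lower in LPS than in untreated monocytes, with a median log2 fold change of 0.36 where all genes had 0.01 and 50.7% of them were called (27.7% higher and 23.0% lower). Btg2 and Btg1, adaptors that bring CCR4-NOT to mRNA, were 4.39-fold and 2.02-fold higher (adjusted p = 1.21e-10 and 9.71e-09, edgeR). Cnot7, which encodes a deadenylase, and Cnot4 were 1.60-fold and 1.45-fold higher. With library size alone 2 of the 19 were higher and 7 lower, and Cnot4 and Cnot7 lost their calls. Platelets before LPS gave no call among the 19, where 7.28% of all genes were called. That was 0 by edgeR, DESeq2 and limma-voom, with 2 lower at an unadjusted p under 0.05 (edgeR). Platelets alone, where 6.49% of all genes were called, lowered Tob2, another adaptor, at log2 −0.33 (adjusted p = 0.0186, edgeR). That call was lost in 5 of 21 alternatives, namely with no filter, with only the 2 groups fitted, and without platelet replicate 2 or untreated replicate 2 or 3 (adjusted p of 0.0614 to 0.106).

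Of 28 genes of decapping, the exosome and exonucleases, 10 were higher and 6 lower with LPS, at a median of 0.06, again near the 50.7% called among all genes. The catalytic decapping enzyme Dcp2 was 3.59-fold higher (adjusted p = 8.87e-09, edgeR), at 53.7 ± 2.22 CPM in LPS monocytes and 14.9 ± 1.41 CPM in untreated monocytes, and the 5′ exonuclease Xrn1 was 2.30-fold higher. The exosome subunits Exosc7 and Exosc10 were at log2 −0.61 and 0.54. The 6 lower genes became 1 without untreated replicate 3 and 3 without LPS replicate 3, and with library size alone 2 were higher and 15 lower. Among platelet plus LPS against LPS monocytes, where 7.28% of all genes were called, 1 was lower. It was Ddx6, a decapping helicase (log2 −0.44, adjusted p = 0.0244, edgeR). None was called lower without platelet plus LPS replicate 1 or 2 or LPS replicate 1 or 3 (adjusted p of 0.0726 to 0.108 for Ddx6, edgeR).

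For other proteins that bind cytokine mRNAs, 23 were listed and 19 tested. With LPS 12 were higher and 0 lower, where 27.7% of all genes were higher and 23.0% lower (DESeq2 and limma-voom also called 0 lower, as did an unadjusted p under 0.05, but 6 were lower with library size alone). Arid5a, which protects Il6 mRNA from Regnase-1, was 8.17-fold higher (adjusted p = 5.93e-11, edgeR), with 37.7 ± 3.46 CPM in LPS monocytes and 4.60 ± 1.07 CPM in untreated monocytes. N4bp1, a relative of the Regnases with a nuclease domain, was 3.94-fold higher, Zc3hav1, the antiviral zinc finger protein ZAP, 4.34-fold and Igf2bp2, an mRNA stabiliser, 7.08-fold. Igf2bp2 was also lower with platelets in both settings, at log2 −0.92 for platelets alone (adjusted p = 0.00354) and −0.61 before LPS (adjusted p = 0.0227, edgeR). The first call was lost with only the 2 groups fitted (adjusted p = 0.0658) and the second when any 1 library of its groups was left out.

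Tristetraprolin is phosphorylated by MK2 downstream of p38, and of 18 genes of that arm 9 were higher and 3 lower with LPS, where 50.7% of all genes were called (27.7% higher and 23.0% lower). The balance turned to 5 higher and 8 lower with library size alone. Mapkapk2, which encodes MK2, was 9.33-fold higher (adjusted p = 1.15e-14, edgeR), at 2612 ± 28.6 CPM in LPS monocytes and 280 ± 4.75 CPM in untreated monocytes. The phosphatase genes Dusp2 and Dusp1, whose products switch off MAP kinases, were 35.4-fold and 2.67-fold higher, and Map2k3, a kinase that activates p38, was lower at log2 −1.17. With platelets before LPS, Mapk14, which encodes p38 alpha, was lower at log2 −0.43 (adjusted p = 0.00693), Mapkapk2 at −0.26 (adjusted p = 0.0365), and Map2k3 higher at 0.28 (adjusted p = 0.0384, edgeR), the last 2 calls lost in more than 10 of 21 alternatives. Platelets alone lowered Dusp1, with 40.9 ± 3.98 CPM in platelet monocytes and 62.1 ± 2.94 CPM in untreated monocytes (log2 −0.60, adjusted p = 0.00101, edgeR). They raised Mapk11, which encodes p38 beta, with 1.70 ± 0.265 CPM in platelet monocytes and 0.648 ± 0.158 CPM in untreated monocytes (log2 1.38, adjusted p = 0.0218, edgeR), a call lost by limma-voom and without platelet replicate 2 or untreated replicate 2 or 3.

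Regnase-1 is removed after IKK phosphorylation in cells given LPS, and the protease MALT1 is known to cut it in T cells. Of 13 genes of that turnover, 9 were higher and 1 lower with LPS, at a median of 0.78, where 27.7% of all genes were higher and 23.0% lower. Malt1 was 24.6-fold higher (adjusted p = 2.36e-12, edgeR), with 291 ± 40.9 CPM in LPS monocytes and 11.8 ± 1.43 CPM in untreated monocytes. Tank, which helps limit Toll-like receptor signalling, was 5.83-fold higher, and the IKK genes Ikbkb and Ikbkg 2.57-fold and 2.74-fold. Platelets lowered Ikbkg in both settings, at log2 −0.51 alone (adjusted p = 0.00639) and −0.40 before LPS (adjusted p = 0.0259, edgeR). The first call was lost with only the 2 groups fitted (adjusted p = 0.0523). The second was lost without platelet plus LPS replicate 1 or 2 or LPS replicate 1 or 3, and with the replicate block (−0.40, adjusted p = 0.0532).

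Most of the tested mRNAs that these proteins are known to destabilise were higher with LPS than without. Of 22 known ZFP36 targets 21 were tested, and in LPS against untreated monocytes 18 were higher and 3 lower, where 50.7% of all genes were called. The median log2 fold change was 5.55, and 5.14 with the 2 genes at 0 in untreated libraries set to their bound of 3 counts per library. Tnf, with 1450 ± 79.0 CPM in LPS monocytes and 30.9 ± 0.736 CPM in untreated monocytes, rose 46.9-fold (adjusted p = 1.57e-15, edgeR), and the chemokine gene Ccl3 96.9-fold. The 3 lower targets, named after their values were seen, were the chemokine gene Ccl2, Myc and Plk3. Of 12 known Regnase-1 targets 9 were tested, 7 were higher and 1 lower: Nfkbiz, a nuclear regulator of Il6, had 535 ± 15.1 CPM in LPS monocytes and 4.96 ± 0.287 CPM in untreated monocytes, and the lower one, Tfrc, the transferrin receptor, had 109 ± 10.4 CPM in LPS monocytes and 203 ± 26.4 CPM in untreated monocytes. Il6, Il1b and Ptgs2 are on both lists.

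Platelets before LPS moved ZFP36 targets in both directions, with 4 higher and 6 lower than with LPS alone and a median of 0.03, where 7.28% of all genes were called (4.41% higher and 2.87% lower). Ccl2 had 1628 ± 129 CPM in platelet plus LPS monocytes and 600 ± 54.8 CPM in LPS monocytes (log2 1.44, adjusted p = 2.92e-07), and Vegfa, which encodes a factor that makes vessels grow, 44.8 ± 3.10 CPM in platelet plus LPS monocytes and 16.3 ± 1.60 CPM in LPS monocytes (log2 1.45, adjusted p = 1.08e-06, edgeR). Nos2, the inducible nitric oxide synthase, had 239 ± 31.2 CPM in platelet plus LPS monocytes and 112 ± 21.2 CPM in LPS monocytes. Plk2, a polo-like kinase, was lower, at 124 ± 4.77 CPM in platelet plus LPS monocytes and 271 ± 6.40 CPM in LPS monocytes (log2 −1.12, adjusted p = 9.76e-06, edgeR). Tnf itself, with 1481 ± 71.6 CPM in platelet plus LPS monocytes and 1450 ± 79.0 CPM in LPS monocytes, was not called. The 6 lower genes became 10 without platelet replicate 1 and 3 without platelet plus LPS replicate 2.

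Of the 9 Regnase-1 targets tested, 3 were lower with platelets before LPS and 0 higher (an unadjusted p under 0.05, limma-voom and DESeq2 gave 0 higher too), where 2.87% of all genes were lower and 4.41% higher. Their median log2 fold change was −0.37. Rel, an NF-kB subunit, had 85.1 ± 11.1 CPM in platelet plus LPS monocytes and 138 ± 9.75 CPM in LPS monocytes (log2 −0.69, adjusted p = 0.00140, edgeR). Nfkbiz had 341 ± 17.5 CPM in platelet plus LPS monocytes and 535 ± 15.1 CPM in LPS monocytes (log2 −0.65, adjusted p = 0.00559, edgeR). Ptgs2, the inducible cyclooxygenase, had 110 ± 17.5 CPM in platelet plus LPS monocytes and 262 ± 14.5 CPM in LPS monocytes, at log2 −1.25 (adjusted p = 0.00831, edgeR), a call lost by DESeq2 and without platelet plus LPS replicate 2. The 3 became 5 without platelet replicate 1.

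Platelets without LPS gave calls on 6 of the 21 ZFP36 targets, 2 higher and 4 lower. None of the 9 Regnase-1 targets was called (edgeR, with 2 higher at an unadjusted p under 0.05, 1 higher by DESeq2 and 0 by limma-voom). Of all genes, 6.49% were called in that comparison (3.63% higher and 2.86% lower). Vegfa was higher, at 26.1 ± 1.72 CPM in platelet monocytes and 10.1 ± 1.34 CPM in untreated monocytes (log2 1.37, adjusted p = 2.61e-06, edgeR). Lower were Il10, the anti-inflammatory cytokine gene, at 1.38 ± 0.178 CPM in platelet monocytes and 3.82 ± 0.197 CPM in untreated monocytes, Cxcl3 at log2 −0.93 and Plk2 at log2 −0.997. The comparisons of platelet against untreated and LPS against untreated share the untreated libraries, and those with platelet plus LPS share that group, so their values are given side by side and no overlap between them is drawn.

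The genes whose levels ran most like each member over the 12 libraries were found by Pearson's r of log2 CPM among 8209 genes. For Zfp36 they were Cx3cl1 and Parp10 (r of 0.998 each), for Zfp36l2 Nop56 and Rab7b (0.996 and 0.995), and for Zfp36l1 Haus8 and Dok2 (0.993 each). For Zc3h12a they were Lta and Hcls1 (0.998 and 0.997), for Zc3h12c Plagl2 and Fchsd2 (0.999 and 0.998), and for Zc3h12d Tnfrsf21 and Nek6 (0.995 each). The libraries with and without LPS form separate clusters, and 1639 of the 8209 genes had an r over 0.9 with Zfp36, so a high r was common. The likest genes to Hnrnpd were Zbtb7a and Tcea1 (0.980 and 0.975) and to Elavl1 Ahcyl1 and Slc35d1 (0.973 and 0.971), while Khsrp had Tmem131 and Hk1 (0.894 and 0.893) and 0 genes over 0.9.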

How the data were processed

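For each of 12 libraries the authors deposited raw counts, 1 whole number for every gene. Per the labels' protocols, Nextera XT libraries were prepared from RNA of the RNeasy Plus Micro kit after amplification with the SMARTer Ultra Low v4 kit. Salmon 1.5.2, featureCounts (Subread 2.0.1), STAR 2.7.9a and fastp 0.23.1 are listed without roles, per the submitters' processing notes. The sources used here give no genome build, annotation or strand setting. Group and replicate came from titles.

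Of 26048 genes with a count, 13151 passed filterByExpr and were tested in 1 fit of 4 group means (edgeR 4.0.16 in R 4.3.3, trimmed mean of M-values, quasi-likelihood F test, 8 residual degrees of freedom, common dispersion 0.0171), two-sided, with Benjamini-Hochberg adjustment over those genes and a threshold of 0.05. The SE comes from the F statistic, and the 95% intervals from its degrees of freedom. Family shares were compared by exact permutation tests. Exon lengths and sequences came from GENCODE M21 (GRCm38). Counting error is the floor of the precision at these depths, and PCR reads that carry no molecular identifiers are not independent molecules.

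The members, the 7 gene lists and the marker lists were chosen with earlier results of these data known. Named are the 9 members, the 2 genes most like each (at least 10 CPM in 1 group) and up to 4 called list genes per comparison by smallest p. Other list genes, such as Tfrc, and individual cell type markers were named after their values were seen. The alternatives were scaling by upper-quartile factors, by DESeq2 size factors or by library size alone, no filter, a stricter filter (1 CPM and 10 counts in 3 libraries), a replicate block, the DESeq2 1.42.0 Wald test, limma-voom (limma 3.58.1), a fit of only the groups compared, and each library left out in turn. The fit was tested on simulated data.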

Additional observations from a re-analysis of the deposited data

Results flagged for a closer look

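Among the members and the listed genes, 5 had a platelet effect that differed between monocytes given LPS and monocytes not given LPS. They were called by the interaction term of the edgeR fit, which tests that difference itself. Of all 13151 genes tested, 208 (1.58%) were called in this term. Zfp36l2 had a difference of 1.18 on the log2 scale (adjusted p = 6.26e-04), with 26.3 ± 1.57 CPM in platelet plus LPS monocytes, 116 ± 17.0 CPM in platelet monocytes, 18.2 ± 1.40 CPM in LPS monocytes and 182 ± 5.62 CPM in untreated monocytes. Map2k3 had 0.47 (adjusted p = 0.0378, from 0.00118 to 0.120 over the alternatives, of which 15 of 20 lost the call). Ccl2 had 1.40 (adjusted p = 0.000110), with 1628 ± 129 CPM in platelet plus LPS monocytes, 1420 ± 190 CPM in platelet monocytes, 600 ± 54.8 CPM in LPS monocytes and 1382 ± 108 CPM in untreated monocytes. Il10 had 1.77 (adjusted p = 0.000229), with 16.5 ± 0.910 CPM in platelet plus LPS monocytes, 1.38 ± 0.178 CPM in platelet monocytes, 13.4 ± 0.835 CPM in LPS monocytes and 3.82 ± 0.197 CPM in untreated monocytes. Il1a had −4.04 (adjusted p = 0.00785); its untreated libraries held 1 count in all and its platelet libraries 34, a ratio of 30.8 (95% interval 5.16 to 1250 from counting error only), against a ratio of 1.37 between platelet plus LPS and LPS monocytes, and limma-voom did not call it (−3.40, adjusted p = 0.0538).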

How the results depend on the processing

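The LPS calls on Zfp36, Zfp36l1, Zfp36l2, Zc3h12a, Zc3h12c and Zc3h12d, the platelet calls on Zfp36l1 and Zfp36l2, the lower Zc3h12c and higher Zfp36l2 with platelets before LPS, and the Zfp36l2 interaction kept their direction and call under every alternative run. The number of members higher with platelets before LPS fell to 1 with DESeq2 size factors, library size alone or the replicate block, and was 1 to 2 over leaving out each library. The number higher in platelet plus LPS against platelet monocytes was 3 with upper-quartile factors or library size alone. The number lower with platelets alone was 2 with no filter or DESeq2, and 1 to 4 when leaving out each library; members with a higher interaction were 1 to 2.

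Over all genes, interaction calls were 371 with no filter, 118 with the replicate block, 394 by DESeq2 and 87 to 361 when leaving out each library. Calls for platelets against untreated were 1291 by DESeq2, 415 with only the groups compared and 410 to 1027 when leaving out each library, and for platelets before LPS 557 to 1640. Once each group's mean was taken out, same-numbered libraries of different groups correlated at −0.228 to 0.140 in 18 pairs. With 3 libraries per group, such values cannot show whether equal numbers mark a shared mouse or day. With platelets before LPS the replicate block took away the calls on Zc3h12d (0.62, adjusted p = 0.0730) and Ikbkg (−0.40, adjusted p = 0.0532, edgeR). It also took away those on Mapkapk2 (−0.26, adjusted p = 0.0642) and Map2k3 (0.28, adjusted p = 0.0807, edgeR). The Map2k3 interaction call was lost too (0.47, adjusted p = 0.0976, edgeR).

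Directions turned as follows. With upper-quartile factors Hnrnpd became 0.00697 for platelets alone and −0.0018 for the interaction. With library size alone Hnrnpd and Elavl1 became −0.14 and −0.13 for LPS against untreated, and Hnrnpd and Khsrp −0.0800 and −0.0334 for platelet plus LPS against platelets. Leaving out each library gave Hnrnpd −0.0564 to 0.00706 for platelets alone and −0.0160 to 0.0312 for platelets before LPS, Zc3h12d −0.199 to 0.131 for platelets alone and Elavl1 −0.0342 to 0.253 for the interaction. The Zfp36 share differences were 52.1, −0.965 and 49.2 percentage points with the longest transcript as length (LPS against untreated, then platelet plus LPS against LPS and against platelets). Without dividing by length the Zc3h12a differences were 10.7 for LPS against untreated, 26.7 for platelet plus LPS against platelets and 0.192 for platelets against untreated, the last −0.354 as reported and −4.41 to 2.696 when leaving out each library, with positive values of 0.649, 2.47 and 2.696. The causes were not tested. Depth limits Zfp36l1 most, with 49 to 83 counts per library under LPS.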
